A study of Homo sapiens with 4 samples.

Results

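RAB small GTPases are the largest branch of the RAS superfamily, and 43 of the 12165 genes measured on these arrays belong to it. The members are the genes whose platform annotation gives 1 symbol made of RAB, a number and an optional letter, and each is represented by its brightest probe set (the set of oligonucleotides that reports 1 transcript). In all, 81 of 22215 probe sets carry such a symbol, so 22 members have several probe sets and 21 have 1. The cells are Huh-7, an established human hepatocellular carcinoma line, and the treatment is transforming growth factor beta (TGF-beta), a secreted factor whose receptors activate SMAD proteins. There were 2 arrays of TGF-beta-treated cells, harvested 48 h after the cytokine was added, and 2 of untreated cells, all grown in serum-containing medium. The labels state no dose. They also do not say whether the arrays of a group came from different cultures, so the p-values cover the spread between these arrays and nothing more, and that spread may be technical.

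A RAB protein is a molecular switch that sits on a particular membrane when bound to GTP and is taken back into the cytosol when bound to GDP. Exchange factors load GTP and so turn it on, GTPase-activating proteins turn it off, a geranylgeranyl transferase attaches the lipid that anchors it, and effectors such as tethers and motor adaptors are what the active form recruits. Different RABs mark different stations of the secretory and endocytic routes, which in hepatocytes carry plasma proteins to the blood and sort receptors between the sinusoidal and canalicular surfaces.

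None of the 43 RAB genes passed the threshold after TGF-beta (limma, 0 at an adjusted p under 0.05, where 1.22% of all genes did, 0.658% higher and 0.567% lower). With an intensity trend in the prior variance of limma, RAB1B and RAB32 were called higher (adjusted p = 0.0397 and 0.0221), among 616 of all genes. The unadjusted p was under 0.05 in 4 members, or 9.30% of them, against 18.0% of all genes. RAB3B, RAB1B and RAB32 were the 3 with higher values (9.35% of all genes) and RAB33B the 1 with a lower value (8.60%). The largest differences were a log2 fold change of 0.46 ± 0.13 for RAB1B and -0.57 ± 0.15 for RAB33B (SE, n = 2 per group), which are folds of 1.37 and 0.673. The median log2 fold change was -0.04 over the RAB genes and -0.01 over all genes, and 19 members had a positive value and 24 a negative one. In 21 members both TGF-beta arrays lay on one side of both untreated arrays, 11 higher and 10 lower, which is 48.8% of them. Over all genes 49.1% separated in this way, 23.3% higher and 25.9% lower, so the share among RAB genes was close to that of the arrays as a whole.

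**Figure D1:**
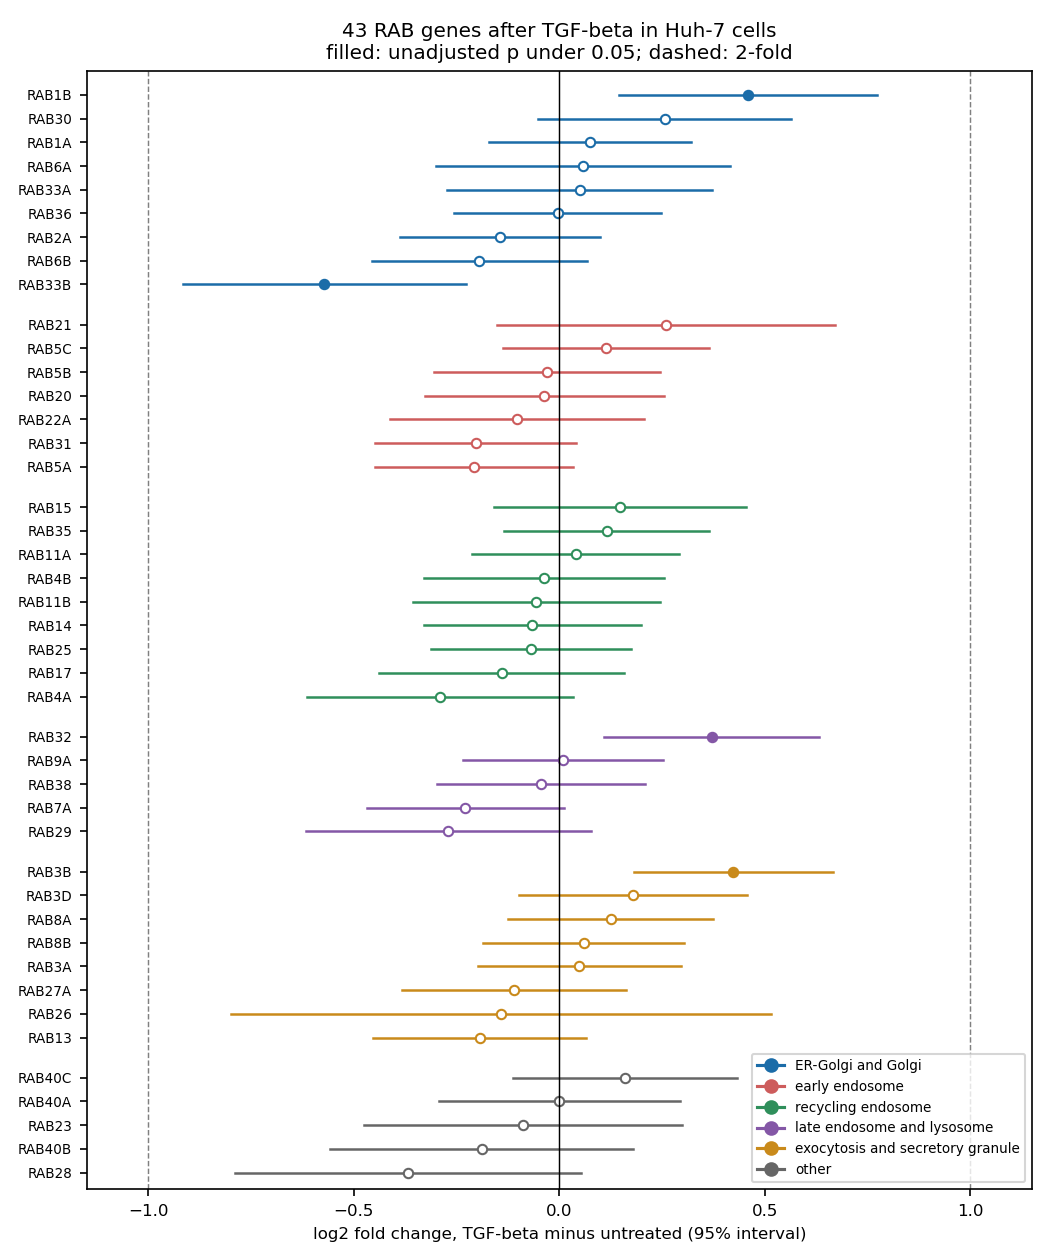
Log2 fold change of each of the 43 RAB genes (TGF-beta minus untreated, horizontal axis) with its 95% interval from limma, grouped by the compartment each protein is known for and coloured by it. Filled points are the 4 members with an unadjusted p under 0.05. All 43 intervals, each from the brightest probe set of the gene, lie between the dashed lines at 2-fold lower and 2-fold higher.

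A missed threshold does not show that a gene stayed level, so the intervals matter here. The 95% intervals of all 43 members lay within 2-fold in either direction, from a lowest bound of -0.92 (RAB33B) to a highest of 0.77 (RAB1B) on the log2 scale. For 34 members the interval lay within 1.5-fold. These bounds hold for the brightest probe set of each gene only. The other probe set of RAB15, above the lower quartile, had a log2 fold change of 0.88 ± 0.17 (SE). The half-width of the interval ranged from 0.24 to 0.66, the widest belonging to RAB26, whose arrays disagreed within both groups. Arrays of the same group were about as close for RAB genes as for all genes. The median absolute log2 difference between the TGF-beta arrays was 0.099 for RAB genes and 0.115 for all genes, and between the untreated arrays 0.120 and 0.128. RAB25, RAB38, RAB40A and RAB40C had mean intensities below 29.1, the lower quartile of all probe sets, where intensity has little room to fall and folds are compressed.

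The arrays themselves had nearly equal overall brightness, with median probe set intensities of 51.0 and 50.7 after TGF-beta and 50.3 and 50.1 in untreated cells. The 9 measured hepatoma markers were all above the lower quartile, with summed intensities of 94029 and 91705 in TGF-beta-treated cells and 85326 and 88132 in untreated cells. Of these, APOA1, an apolipoprotein of high density lipoprotein, rose (log2 fold change 0.74, adjusted p = 0.0378) and TTR, a thyroid hormone carrier, fell (-0.63, adjusted p = 0.0470). SMAD7 and SKIL, feedback inhibitors that TGF-beta induces in many cells, had log2 fold changes of -0.03 ± 0.13 and 0.06 ± 0.16 (SE) and were not called. Of markers of other cell types, 0 of 8 fibroblast, 1 of 5 leukocyte and 0 of 6 endothelial genes were called. The 1 was CD14, a lipopolysaccharide co-receptor that hepatocytes also make, while the leukocyte antigen PTPRC had intensities from 28.3 to 31.7 over the 4 arrays, near the lower quartile. The summed leukocyte markers were 254 and 270 after TGF-beta and 185 and 195 in untreated cells, and CD14 alone read 146 and 157 after TGF-beta and 75.6 and 75.4 in untreated cells. Summed fibroblast markers were 7039 and 7545 against 7511 and 6980, nearly all of it LUM. Of the 8 fibroblast markers 7 had a negative log2 fold change, and 2 of these had an unadjusted p under 0.05, COL1A1 (-0.44) and DCN (-0.53). Summed endothelial markers were 188 and 178 against 190 and 189. The part of these genes in the RAB values was not tested.

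The RABs of the early secretory route and the Golgi held the members farthest from 0 in both directions. RAB1B, which drives transport from the endoplasmic reticulum to the Golgi, had intensities of 1554 and 1338 after TGF-beta and 1143 and 962 in untreated cells. The groups did not overlap, but the pair of arrays in each group was also spread, by about as much as the gap between the groups. The log2 fold change was 0.46 ± 0.13 (SE), with an adjusted p of 0.131. RAB1A, its close relative in the same transport step, had intensities of 9061 and 9148 after TGF-beta and 8388 and 8916 in untreated cells. Its log2 fold change was 0.07, with a 95% interval of -0.17 to 0.32, and its other 2 probe sets gave 0.06 and -0.01. The intervals of RAB1B (0.15 to 0.77) and RAB1A overlap, and the difference between the 2 genes was not tested.

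RAB33B, a Golgi RAB that also binds the autophagy protein ATG16L1, had intensities of 93.7 and 106 after TGF-beta and 130 and 168 in untreated cells. Both TGF-beta arrays were lower than both untreated ones, and the untreated arrays were the more spread pair. Its adjusted p from limma was 0.101. The log2 fold change was -0.76 without untreated array 1 and -0.39 without untreated array 2, so its size depends on which untreated array is kept. RAB33A, its relative, was dim at 40.7 and 31.9 after TGF-beta and 34.6 and 35.0 in untreated cells, and its groups overlapped.

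RAB30, another Golgi RAB, was near the lower quartile at 32.6 and 34.9 after TGF-beta and 31.3 and 25.4 in untreated cells, with a log2 fold change of 0.26 (adjusted p = 0.360), which was 0.11 without untreated array 2 and 0.41 without untreated array 1. RAB2A, which acts between the endoplasmic reticulum and Golgi, had 2523 and 2638 after TGF-beta and 2851 and 2851 in untreated cells, a log2 fold change of -0.14 (adjusted p = 0.529). Of its 5 other probe sets, 4 were also negative (-0.18 to -0.02) and 1 was positive (0.13). RAB6B, the form of RAB6 known for its abundance in brain, had 43.8 and 46.0 after TGF-beta and 54.1 and 48.7 in untreated cells, a log2 fold change of -0.19. RAB6A, the widely used form, which serves retrograde transport through the Golgi, stood at 0.06 with overlapping arrays. RAB36 stood at -0.004.

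**Figure D2:**
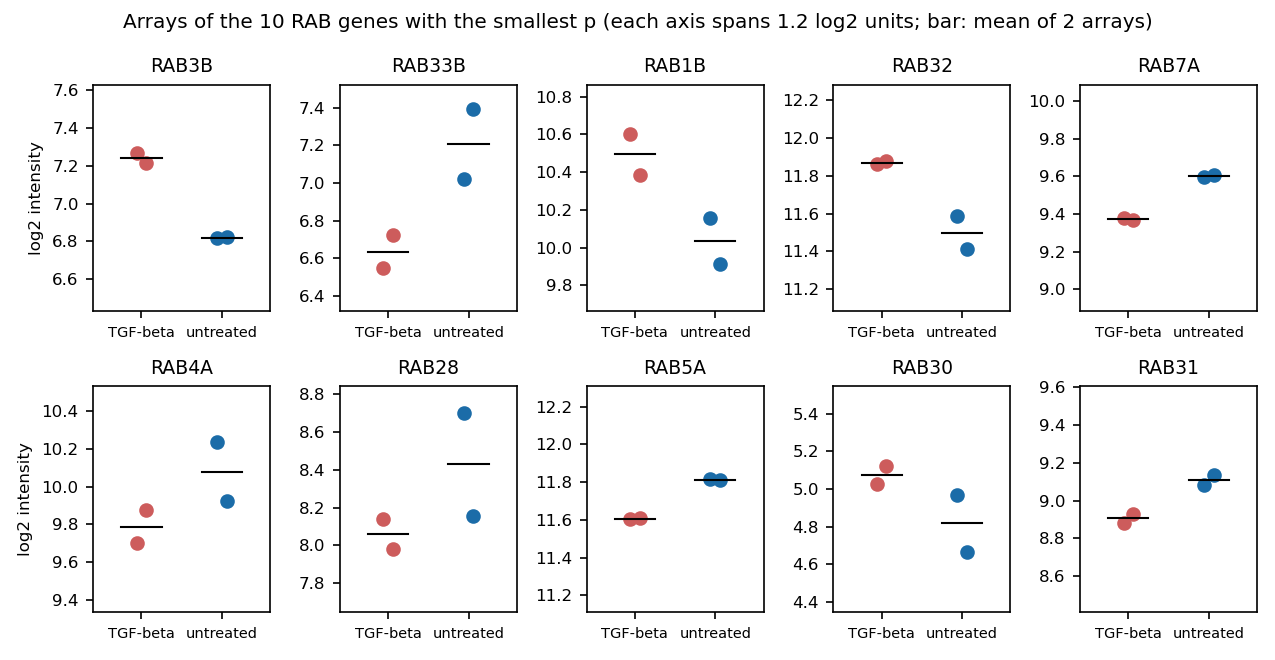
Log2 intensity on each array (points) and group mean (bars) of the 10 RAB genes with the smallest p, TGF-beta left and untreated right in every panel, each vertical axis spanning the same width of 1.2. The groups separate in all 10, which the choice by p favours, and 49.1% of all genes also separate. Pairs of arrays are close in RAB3B, RAB7A and RAB5A, and the untreated arrays are widely spaced in RAB33B, RAB4A and RAB28.

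Among RABs of exocytosis and secretory granules, RAB3B had the smallest p of all members. RAB3B works on regulated secretory vesicles. Its probe set read 154 and 149 after TGF-beta and 113 and 113 in untreated cells, 2 tight and well separated pairs, for a log2 fold change of 0.42 ± 0.10 (SE, adjusted p = 0.0924). The other probe set of RAB3B went the opposite way, at 40.6 and 40.4 after TGF-beta and 52.2 and 46.2 in untreated cells, or -0.28 ± 0.11 (SE). The direction for RAB3B thus holds for its brightest probe set only, and with the mean of both its value was 0.07 (adjusted p = 0.743). RAB3D, found on granules of exocrine cells, had 36.8 and 42.4 after TGF-beta and 36.0 and 33.7 in untreated cells, and RAB3A, the synaptic vesicle form, had a log2 fold change of 0.05 with overlapping arrays.

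RAB8A, which carries vesicles to the plasma membrane and the primary cilium, had 1558 and 1480 after TGF-beta and 1435 and 1351 in untreated cells, a log2 fold change of 0.13 (adjusted p = 0.608). RAB8B stood at 0.06. RAB13, which serves traffic to tight junctions, had 2418 and 2168 after TGF-beta and 2655 and 2584 in untreated cells. Its groups did not overlap, and the log2 fold change was -0.19 ± 0.11 (SE, adjusted p = 0.419). RAB27A, which docks secretory lysosomes and exosome-bearing endosomes, and RAB26 stood at -0.11 and -0.14 with overlapping arrays.

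None of the 7 RABs of early endosomes or the 5 of late endosomes and lysosomes was called. RAB5A, RAB31 and RAB7A had lower values on both TGF-beta arrays, and RAB5C and RAB32 had higher values on both. The groups separated in this way in 42.9% of the early and 40% of the late endosome members, against 49.1% of all genes. RAB5A, the RAB that drives fusion of early endosomes, had 3110 and 3121 after TGF-beta and 3607 and 3589 in untreated cells. Its log2 fold change was -0.21 ± 0.10 (SE, adjusted p = 0.342). The 3 other probe sets of RAB5A gave -0.32, 0.21 and 0.23. RAB5B and RAB5C, which share that function, stood at -0.03 and 0.11. The 95% intervals of all 3 forms hold 0, and the differences between the forms were not tested. RAB31, which works between the trans-Golgi network and endosomes, had 471 and 488 after TGF-beta and 542 and 563 in untreated cells, and its 3 probe sets gave -0.20, -0.19 and -0.32. RAB21, known for the uptake of integrins, had 268 and 299 after TGF-beta and 197 and 284 in untreated cells. Its groups overlapped, and the untreated arrays were far apart. RAB20 and RAB22A stood at -0.04 and -0.10.

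RAB7A, which brings late endosomes to the lysosome, had 665 and 660 after TGF-beta and 774 and 779 in untreated cells. The log2 fold change was -0.23 ± 0.10 (SE, adjusted p = 0.301), and another probe set gave -0.27. The 2 remaining probe sets of RAB7A lay below the lower quartile and gave 0.17 and -0.03. RAB32, which recruits cargo to lysosome-related organelles and also sits on mitochondria, went the other way at 3724 and 3761 after TGF-beta and 3074 and 2726 in untreated cells. Its log2 fold change was 0.37 ± 0.11 (SE, adjusted p = 0.143). RAB38, its relative in melanosome formation, was below the lower quartile at 24.0 and 24.9 after TGF-beta and 26.3 and 24.2 in untreated cells. RAB29, a partner of the kinase LRRK2, had 381 and 300 after TGF-beta and 441 and 377 in untreated cells. Its arrays overlapped slightly, its 2 probe sets gave -0.27 and -0.32, and the first stood at -0.10 without TGF-beta array 2. RAB9A, which returns mannose 6-phosphate receptors from late endosomes, stood at 0.01 with an interval of -0.23 to 0.25.

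Among RABs of recycling endosomes, RAB4A, which serves fast recycling, had 832 and 940 after TGF-beta and 1205 and 971 in untreated cells. The groups did not overlap and the log2 fold change was -0.29 ± 0.14 (SE, adjusted p = 0.326), but the other probe set of RAB4A gave -0.02 ± 0.10 (SE). The value of RAB4A was -0.14 without untreated array 1 and -0.45 without untreated array 2. RAB15, which slows receptor recycling, had 123 and 98.6 after TGF-beta and 99.4 and 99.3 in untreated cells, so 1 TGF-beta array lay above and 1 just below both untreated arrays. The other probe set of RAB15 read 94.95 and 65.8 after TGF-beta and 42.5 and 43.3 in untreated cells, a log2 fold change of 0.88 ± 0.17 (SE). This was the largest difference and the smallest adjusted p (0.0644) of the 81 RAB probe sets when all probe sets with 1 symbol were tested, and it was not called. With the mean of both, RAB15 stood at 0.51 (adjusted p = 0.130). RAB11A, the central RAB of slow recycling, had 6855 and 6993 after TGF-beta and 7017 and 6465 in untreated cells, with a log2 fold change of 0.04 and an interval of -0.21 to 0.29. RAB11B stood at -0.06 and RAB25, the epithelial member of the same clade, at -0.07. RAB17, an epithelial RAB of polarised sorting, stood at -0.14, RAB14 at -0.07, RAB35 at 0.12 and RAB4B at -0.04.

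The remaining members have other roles. RAB28, a RAB of cilia, had 282 and 253 after TGF-beta and 417 and 285 in untreated cells. The lower untreated array was close to the higher TGF-beta array, and the log2 fold change was -0.37 ± 0.18 (SE, adjusted p = 0.340). The log2 fold change of RAB28 was -0.64 without untreated array 2 and -0.09 without untreated array 1, so its size rests on untreated array 1. RAB40B and RAB40C, which carry a SOCS box that recruits ubiquitin ligase subunits, had 53.6 and 49.5 against 50.3 and 68.5, and 24.8 and 28.7 against 23.8 and 24.0 (TGF-beta against untreated in each). RAB40A stood at 0.0004 and RAB23, which restrains Hedgehog signalling, at -0.09. The median log2 fold change was 0.05 for the 9 RABs of the early secretory route and Golgi and 0.05 for the 8 of exocytosis. It was -0.04 for early endosomes, -0.04 for late endosomes and lysosomes, -0.06 for the 9 of recycling endosomes and -0.09 for the 5 others. The 23 members beyond the 20 with the smallest p lay between -0.14 and 0.12, each with an interval that holds 0.

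**Figure D3:**
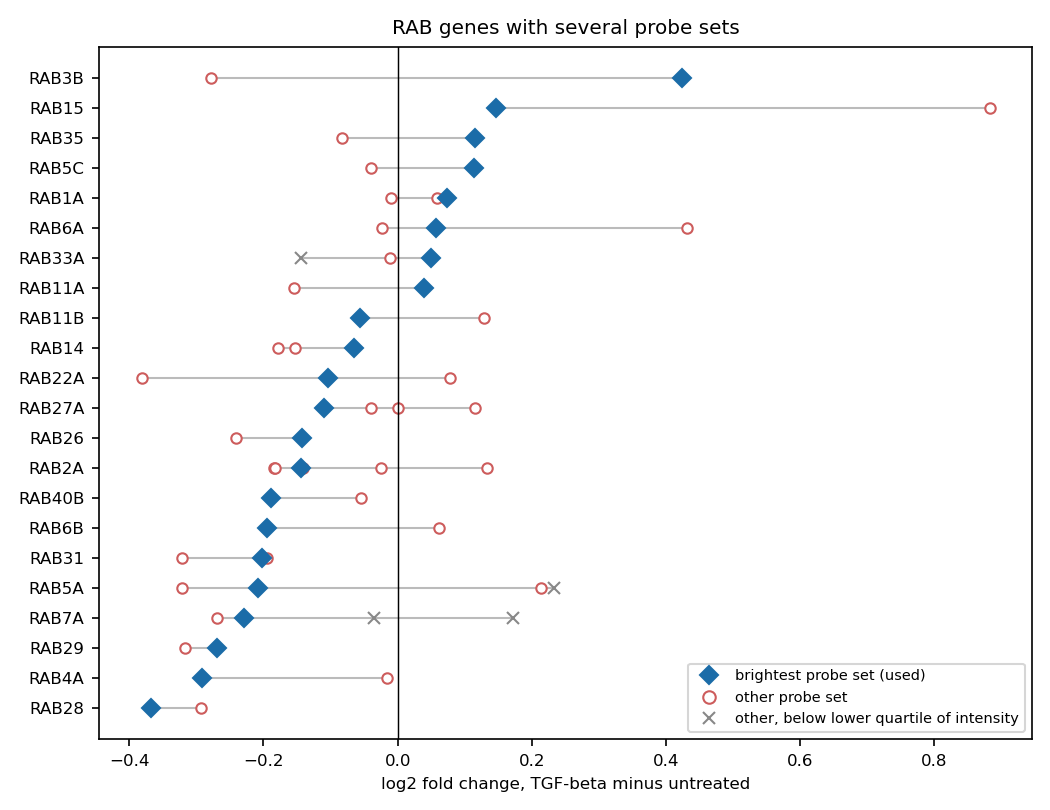
Log2 fold change (TGF-beta minus untreated) of every probe set of the 22 RAB genes with more than 1, ordered by the brightest probe set (diamonds), with the other probe sets as circles and those below the lower quartile of intensity as crosses. In 8 of the 22 genes every other probe set has the sign of the brightest one, and the widest gaps are those of RAB15 and RAB3B.

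Agreement between probe sets was limited. In 8 of 22 members with several probe sets all of them had the same sign, namely RAB14, RAB15, RAB26, RAB28, RAB29, RAB31, RAB40B and RAB4A. Of the 81 RAB probe sets, 11 had an unadjusted p under 0.05 and 0 an adjusted p under 0.05 (limma). Over the 19724 probe sets with 1 symbol in that fit the shares were 16.5% and 0.887%. RAB6A had 1 probe set among these 11, at 41.6 and 58.4 after TGF-beta and 36.0 and 37.1 in untreated cells, with a log2 fold change of 0.43.

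Promoter sequence was set beside the 3 members that had higher values at an unadjusted p under 0.05 (limma). None was found for RAB33B, the 1 member with a lower value at that threshold. The windows are the 250 bases upstream of the RefSeq gene start in GRCh38.p14, written on the strand of the gene, and capitals mark CAGAC or its complement GTCTG, the box that SMAD proteins can bind. The windows lie at chr1:51990701-51990950 on the minus strand for RAB3B, chr11:66268389-66268638 on the plus strand for RAB1B and chr6:146543583-146543832 on the plus strand for RAB32.
RAB3B: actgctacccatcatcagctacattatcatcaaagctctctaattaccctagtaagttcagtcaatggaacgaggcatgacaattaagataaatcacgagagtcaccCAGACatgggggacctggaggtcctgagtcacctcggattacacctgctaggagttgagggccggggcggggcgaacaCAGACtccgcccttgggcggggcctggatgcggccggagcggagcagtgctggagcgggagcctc
RAB1B: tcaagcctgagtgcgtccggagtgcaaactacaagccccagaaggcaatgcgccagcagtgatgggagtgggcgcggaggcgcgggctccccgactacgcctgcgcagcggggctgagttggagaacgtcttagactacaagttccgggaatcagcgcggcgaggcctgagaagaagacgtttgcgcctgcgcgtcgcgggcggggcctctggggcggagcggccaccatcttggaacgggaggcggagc
RAB32: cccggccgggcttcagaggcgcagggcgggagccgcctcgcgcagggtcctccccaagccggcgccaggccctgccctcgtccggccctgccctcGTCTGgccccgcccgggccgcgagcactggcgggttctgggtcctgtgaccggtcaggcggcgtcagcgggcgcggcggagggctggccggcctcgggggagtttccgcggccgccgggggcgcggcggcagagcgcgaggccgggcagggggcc
RAB3B has 2 matches to CAGAC, RAB32 has 1 on the opposite strand and RAB1B has 0. The G and C content was 56.8% for RAB3B, 66.8% for RAB1B and 82.0% for RAB32, against a median of 58.0% over all promoter windows. RefSeq windows were found for 34 RAB genes (47 windows, since some genes have several starts). CAGAC on either strand was in 36.2% of these windows and in 38.0% of all 35116 windows of that length. The GC box GGGCGG, which SP1 can bind, was on either strand in 74.5% of RAB windows and 42.6% of all windows, and the RAB windows had a higher median G and C content of 64.8%. The E-box CACGTG was in 8.51% and 6.34%. A match of letters is a description and not evidence of binding.

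The genes that act on RABs were read from the same fit, in 4 lists of 138 measured genes. Of these 2 were called, against 1.22% of all genes, and 40 (29.0%) had an unadjusted p under 0.05, against 18.0% of all genes. The 40 were 14 with higher and 26 with lower values (9.35% and 8.60% of all genes). TBC1D8B fell. It belongs to the TBC-domain family, the domain that makes RABs hydrolyse GTP, and read 270 and 266 after TGF-beta and 469 and 446 in untreated cells. The log2 fold change was -0.77 ± 0.10 (SE, adjusted p = 0.0297), a fold of 0.586. EXOC7, a subunit of the exocyst, the tether of secretory vesicles at the plasma membrane, rose 1.70-fold. It read 325 and 320 after TGF-beta and 184 and 196 in untreated cells, a log2 fold change of 0.76 ± 0.11 (SE, adjusted p = 0.0299). The other 4 probe sets of EXOC7 gave 0.45, 0.18, 0.07 and 0.004, and with the mean of all 5 the value was 0.29 and the call was lost (adjusted p = 0.150). It was also lost without probe sets ending in _x_at or _s_at (0.07, limma adjusted p = 0.874). EXOC7 was then read from a dimmer probe set, at 41.6 and 35.1 after TGF-beta and 39.5 and 33.8 in untreated cells. Without either TGF-beta array neither gene was called, and 0 of all genes were.

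**Figure D4:**
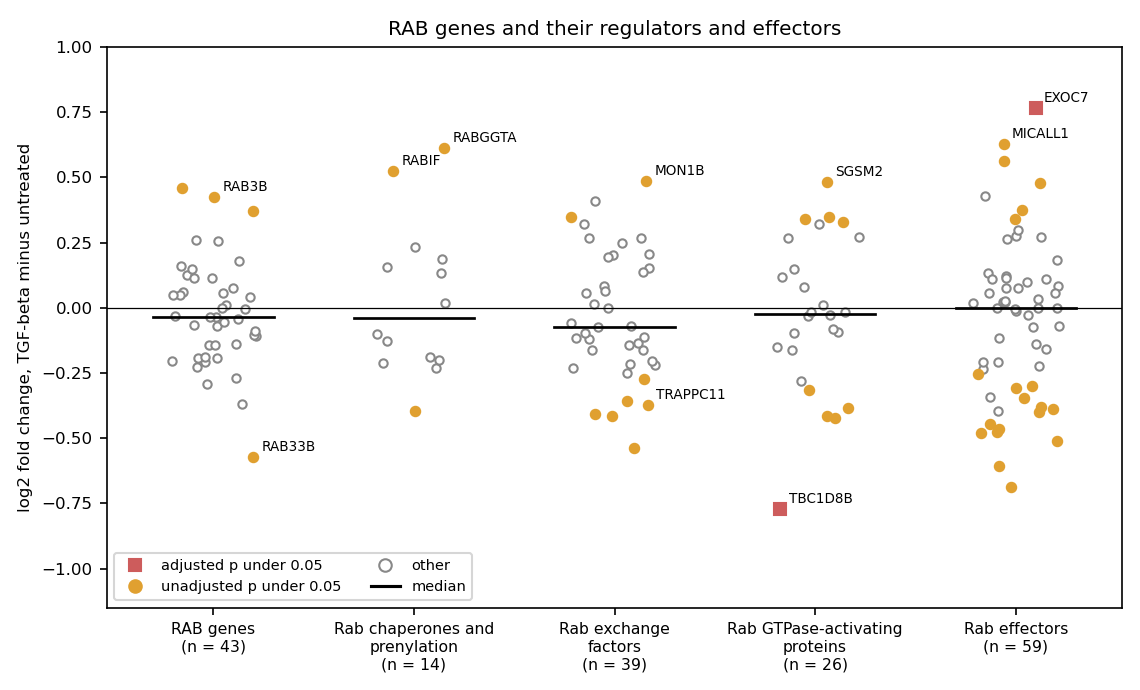
Log2 fold change (TGF-beta minus untreated, vertical axis) of the RAB genes and of 4 lists of genes that act on or with them, 1 point a gene, with the median of each list as a bar. The called genes EXOC7 (0.76) and TBC1D8B (-0.77) are squares. Of the 20 effectors with an unadjusted p under 0.05 (limma), 14 lie below 0. Over all genes 9.35% were higher and 8.60% lower at that p.

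Of 14 chaperones and prenylation factors 0 were called by limma, where 1.22% of all genes were. An unadjusted p under 0.05 was found in 3 (21.4%, against 18.0% of all genes). The median log2 fold change of the 14 was -0.04. RABIF, which holds RABs free of nucleotide, read 634 and 695 after TGF-beta and 460 and 465 in untreated cells, or 0.52 ± 0.11 (SE, adjusted p = 0.0616). Its other probe set gave 0.18. RABGGTA, a subunit of the geranylgeranyl transferase, read 64.4 and 65.1 after TGF-beta and 47.9 and 37.5 in untreated cells, or 0.61 (adjusted p = 0.0745). YIPF6, a Golgi membrane protein of a family that binds prenylated RABs, read 2275 and 2514 after TGF-beta and 3151 and 3136 in untreated cells, or -0.39 (adjusted p = 0.117), and its 3 other probe sets were also negative, from -0.56 to -0.25.

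Of 39 exchange factor genes 0 were called by limma and 8 (20.5%) had an unadjusted p under 0.05, 2 higher and 6 lower. Over all genes 18.0% had such a p, 9.35% higher and 8.60% lower. The median of the 39 was -0.07. MON1B, part of an exchange factor of RAB7, read 67.0 and 66.1 after TGF-beta and 45.3 and 49.7 in untreated cells, or 0.49 (adjusted p = 0.0736), while RAB7A itself had the lower value given above. DENND1A, an exchange factor of RAB35, read 121 and 113 after TGF-beta and 170 and 143 in untreated cells, or -0.42 (adjusted p = 0.138). TRAPPC11, a TRAPP complex subunit, was below the lower quartile and stood at -0.37. Of 26 GTPase-activating proteins 1 was called, TBC1D8B, and their median was -0.02. An unadjusted p under 0.05 (limma) was found in 9 of them (34.6%, against 18.0% of all genes). SGSM2, a protein with RUN and TBC domains, stood at 0.48 (adjusted p = 0.0795) and its other 2 probe sets at 0.38 and 0.28. TBC1D17 stood at 0.34 (adjusted p = 0.146).

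Of 59 effectors 1 was called, EXOC7, and 20 (33.9%) had an unadjusted p under 0.05 (limma), 6 higher and 14 lower. Over all genes 1.22% were called and 18.0% had such a p, 9.35% higher and 8.60% lower. The median of the 59 was -0.002. MICALL1, an effector on tubular recycling endosomes, read 121 and 107 after TGF-beta and 76.9 and 70.5 in untreated cells, or 0.63 (adjusted p = 0.0549). Its other probe set also gave 0.63 but with an SE of 0.18 (limma, adjusted p = 0.132 with every probe set as a feature). GOLGB1, or giantin, a long coiled-coil tether of the Golgi, read 503 and 429 after TGF-beta and 681 and 820 in untreated cells. Its log2 fold change was -0.69 (adjusted p = 0.0582), and its other probe set gave -0.72. The other golgins on the list were chosen for mention after their values were seen. GOLGA4, GOLGA5 and GCC2 stood at -0.61, -0.48 and -0.31, and GOLGA2 and GCC1 at 0.03 and 0.03, and none of the 6 was called. GOLGB1 and MICALL1 were called by limma without probe sets ending in _x_at or _s_at (adjusted p = 0.0419 and 0.0408). With 1 array left out, the log2 fold change ranged from -0.82 to -0.55 for GOLGB1, -0.83 to -0.38 for GOLGA4 and 0.55 to 0.71 for MICALL1. Without untreated array 2, GOLGA4 stood at -0.38 and GCC2 at -0.17, and GOLGA4 stood at -0.40 with the mean of its probe sets. EXOC2, also chosen after its value was seen, stood at -0.44 (adjusted p = 0.0861), opposite to EXOC7 in the same complex. Of the 5 measured exocyst subunits on the effector list, 3 had a positive value and 2 a negative one. EXOC3 stood at 0.30, EXOC4, below the lower quartile, at 0.05 and EXOC5 at -0.34.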

How the data were processed

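RNA of 4 Huh-7 samples was measured on Affymetrix arrays. The deposited table holds linear intensity values, 1 for each probe set and array. Per the submitters' processing notes the affy package was used. How it corrected background and summarised probes is unstated, so neither step could be varied. Quartiles were nearly equal between arrays, so no scaling was added. The log2 of each deposited value was taken as it stood.

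Of 22215 probe sets, the platform annotation, which can be old, gives 1 symbol for 19724, several for 568 and none for 1923. Symbols were updated by Entrez number through RefSeq (GRCh38.p14), found for 19707. The brightest probe set stood for each of 12165 genes. Groups were compared with limma 3.58.1 (R 4.3.3; lmFit, eBayes, 7.41 degrees of freedom per gene) with Benjamini-Hochberg adjustment over all genes, called at an adjusted p under 0.05; plots used matplotlib 3.10.9 (Python 3.11.15). The fit was tested on simulated data. The number of arrays limits precision.

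The members and lists were chosen with earlier results of these data known. Named in full were the 20 RAB genes with the smallest p, called regulators and the 3 smallest p of each list. Checks were SMAD7, SKIL, ALB and AFP, and another check gene was not analysed here. ALB and AFP had log2 fold changes of 0.07 and 0.06. Alternatives covered normalization, offset, dim genes, probe set choice, the variance prior, the replicate number and leaving out each array.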

Additional observations from a re-analysis of the deposited data

How the results depend on the processing

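No RAB gene was called under quantile normalization, median centring, an offset of 16 before log2, without dim genes (which left 39 RAB genes), with the mean of all probe sets, without probe sets ending in _x_at or _s_at (which left 30), or, as an alternative chosen after seeing the data, with every probe set as a feature. RAB33B, RAB1B and RAB32 have 1 probe set each, ending in _s_at. The setting without such probe sets therefore left them out and could not call them. With an intensity trend in the prior variance 2 were called, RAB1B and RAB32, both higher, while 616 of all genes were called. Both groups have arrays 1 and 2, but same-numbered arrays did not deviate together (correlation of deviations over genes 0.0097), so the number is not taken as a pairing. With the replicate number as a block, 3 were called, 2 higher (RAB1B, RAB3B) and 1 lower (RAB33B), among 1229 of all genes, in a fit with few residual degrees of freedom. Leaving out 1 array leaves 1 in its group, so for those fits log2 fold changes are given here and calls are not counted. The log2 fold change then ranged from -0.76 to -0.39 for RAB33B and from -0.64 to -0.09 for RAB28. The group with 1 array left was assumed to vary like the other.

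The 4 RAB genes at an unadjusted p under 0.05 became 5 with median centring (RAB7A added) and 7 with the offset, the mean of probe sets, the trend and the block. With the mean of probe sets RAB3B was not among the 7 and RAB15, RAB28, RAB29 and RAB31 were. The count became 2 without _x_at and _s_at probe sets (RAB3B and RAB28), a setting that left out RAB1B, RAB32 and RAB33B. The 2 calls among regulators and effectors became 1 with the mean of probe sets (TBC1D8B), 3 without _x_at and _s_at probe sets (TBC1D8B, GOLGB1 and MICALL1, but not EXOC7), 11 with the trend, 25 with the block and 0 to 9 when 1 array was left out. The median of RAB genes ranged from -0.02 to 0.01 when 1 array was left out.

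The log2 fold change of some members, and of the effectors GOLGA2 and GCC1, changed sign between settings. Not all of these were near 0. In the fit used above RAB21 stood at 0.26, RAB7A at -0.23, RAB40B at -0.19, RAB15 at 0.15 and RAB26 at -0.14. RAB36 stood at 0.0075 under quantile normalization, and RAB9A and RAB40A at -0.010 and -0.019 under median centring. RAB40A stood at -5.83e-04 with the offset. With the mean of probe sets RAB11B stood at 0.036, RAB11A at -0.058, RAB33A at -0.035 and GOLGA2 at -0.0073. Without _x_at and _s_at probe sets RAB7A, then read from a dim one, stood at 0.17 and RAB1A at -0.0098. With 1 array left out, the values ranged from -0.0027 to 0.52 for RAB21, -0.59 to 0.31 for RAB26, -0.18 to 0.068 for RAB11B, -0.10 to 0.015 for RAB38, -0.16 to 0.27 for RAB6A, -0.16 to 0.082 for RAB20, -0.17 to 0.093 for RAB4B, -0.13 to 0.067 for RAB5B, -0.016 to 0.034 for RAB9A, -0.41 to 0.035 for RAB40B, -0.23 to 0.026 for RAB22A, -0.15 to 0.020 for RAB14, -0.02 to 0.10 for RAB11A, -0.062 to 0.054 for RAB36, -0.12 to 0.12 for RAB40A, -0.01 to 0.30 for RAB15, -0.34 to 0.16 for RAB23, -0.13 to 0.23 for RAB33A, -0.25 to 0.30 for GOLGA2 and -0.14 to 0.21 for GCC1. The cause of these changes was not tested.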

Other observations

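The annotation names 2 probe sets for both RAB27B and SH3BGR and 1 for both RAB6C and RAB6A, which kept them out of the comparison. The pair of RAB27B and SH3BGR read 23 and 29.3 after TGF-beta and 28.1 and 29.1 in untreated cells on one, and 32.7 and 33.8 after TGF-beta and 38.1 and 38.5 in untreated cells on the other. Their log2 fold changes were -0.14 ± 0.14 and -0.20 ± 0.10 (SE, n = 2 per group). The RAB6C and RAB6A probe set read 1318 and 1382 after TGF-beta and 1275 and 1555 in untreated cells, a log2 fold change of -0.06 ± 0.13. None was called (limma, adjusted p from 0.381 to 0.875).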
